A study of Sus scrofa with 6 samples.

Results

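The segmentation clock and Notch genes followed here are 10 named genes, of which 9 had a measurable window: the Notch ligands DLL1, DLL3 and JAG1, the glycosyltransferase LFNG, the repressors HES7 and HEY1, and the segment determination genes MESP2, RIPPLY2 and TBX6. NOTCH1 lies on an unplaced scaffold of the reference annotation while the peak lists hold chromosomes, and it was not analysed here. A gene's window was its body plus the 2 kb before its start in the Sscrofa11.1 assembly, and every open chromatin peak that touched the window counted. Peaks of the 6 libraries that overlapped were merged, and 50 of the 294825 merged regions fell in the 9 windows (8 promoter regions, which touch the 2 kb before the start, and 42 others). A peak was present in all 6 libraries in 31 of the 50. LFNG held 24 of the regions and JAG1 held 13, so counts of regions are mostly counts over these genes.

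Single-cell ATAC-seq, in which a transposase cuts accessible DNA inside nuclei that are then barcoded in droplets, was run on somites at embryonic day 18 (E18) and day 21 (E21) and on myotome at day 28 (E28). ZZ embryos were Tibetan pigs and DZ embryos came from crossing Duroc with Tibetan pigs. Each of the 6 combinations of stage and breed was 1 library, made from 5 pooled embryos of a single sow, so litter and library cannot be told apart and at E28 tissue and stage cannot be told apart. The labels name no treatment. Barcodes with 2000 to 30000 counts were kept, which gave 9286 to 11243 barcodes and 89816504 to 133037579 counts per library, and levels are given as counts per 1000000 of these totals (CPM). Pairs of libraries shared 113 to 157 barcode sequences, at most 1.66% of the smaller library. Called peaks covered 191 and 168 Mb at E18 but 102 and 108 Mb at E28, and counts exist only inside called peaks. No combination of stage and breed was replicated, so p-values measure the spread between libraries that is left after additive terms for stage and breed. A stage change that differs between breeds counts as spread there.

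Somites bud one after another from the presomitic mesoderm, where Notch ligands on one cell activate receptors on the next, and cyclic repressors of the HES family switch the pathway off again in a rhythm known as the segmentation clock. TBX6 keeps cells in the presomitic mesoderm fate, MESP2 marks where the next border will form, and RIPPLY2 ends the TBX6 and MESP2 programme as the somite forms. The same ligands are used again later, in neural progenitors, in vessels and in muscle, where Notch signalling holds precursor cells undifferentiated.

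Across stages, 5 of the 9 gene windows fell from E18 to E28 (edgeR quasi-likelihood test, Benjamini-Hochberg adjusted p under 0.05, with a term for breed): RIPPLY2, TBX6, DLL1, JAG1 and DLL3. None rose. Over all 23286 windows tested, 42.4% were called in this comparison, 21.8% lower and 20.6% higher, so a call at E28 is common and 5 lower of 9 is read against 21.8%. The median log2 fold change of the 9 windows was -0.44, beside -0.04 over all windows. From E18 to E21 only TBX6 was called, and it was lower, where 1.93% of all windows were called and 1.13% were lower. From E21 to E28, DLL1, JAG1 and RIPPLY2 fell, where 5.71% of all windows were called and 4.77% were lower. The stage comparisons share libraries and are not independent. By DESeq2, which called 61.4, 34.1 and 34.5% of all windows in these 3 comparisons, 7, 2 and 6 member windows were called, and 1 of the 7 and 1 of the 6 (HES7 in both) were higher. Leaving out E18 DZ left 1 member window called from E18 to E28 and 5.26% of all windows. The calls from E18 to E21 and from E21 to E28 were lost without any 1 of the 4 E18 and E21 libraries. Those fits called few windows of any gene, 0.017% without E18 ZZ and 0.0% without each of the others from E18 to E21, and 1.45% (without E18 ZZ), 1.22% (E18 DZ), 0.13% (E21 ZZ) and 0.265% (E21 DZ) from E21 to E28. Over all 6 fits with 1 library left out, TBX6 at E21 against E18 stayed between -0.97 and -0.90 and JAG1 at E28 against E21 between -0.49 and -0.47. At E28 against E21, DLL1 ranged more widely, from -1.16 to -0.73, and RIPPLY2 from -1.39 to -1.01. Left out 1 library at a time, TBX6 kept its E28 against E18 call in 6 of 6 fits, RIPPLY2, DLL1 and JAG1 in 5 and DLL3 in 2.

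How peaks were called moved with these falls, so the values are given in more than 1 way. When each window instead received the counts of the whole merged regions that touch it, 5 windows were again lower at E28 than at E18, but they were RIPPLY2, JAG1, DLL1, DLL3 and LFNG, and TBX6 was not among them (46.6% of all windows were called). Under this counting no window was called from E18 to E21 (7.07% of all windows called), and JAG1 and RIPPLY2 alone fell from E21 to E28 (9.95%). When the length covered by peaks was used as an offset, so that counts per covered base were compared, the median of all windows shifted to +0.54 and 68.5% of all windows were called, 66.3% higher and 2.17% lower. On this scale 5 member windows were called, 1 lower (RIPPLY2, -1.01) and 4 higher (HES7 0.47, LFNG 0.50, TBX6 0.36 and JAG1 0.70), and of the 4 only JAG1 lay above the median of all windows. DLL1 (-0.28) and DLL3 (0.10) were not called, and DLL3, LFNG, MESP2, TBX6 and JAG1 had the opposite sign to the counts. The part of peak width in the falls was not tested beyond these values.

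**Figure D1:**
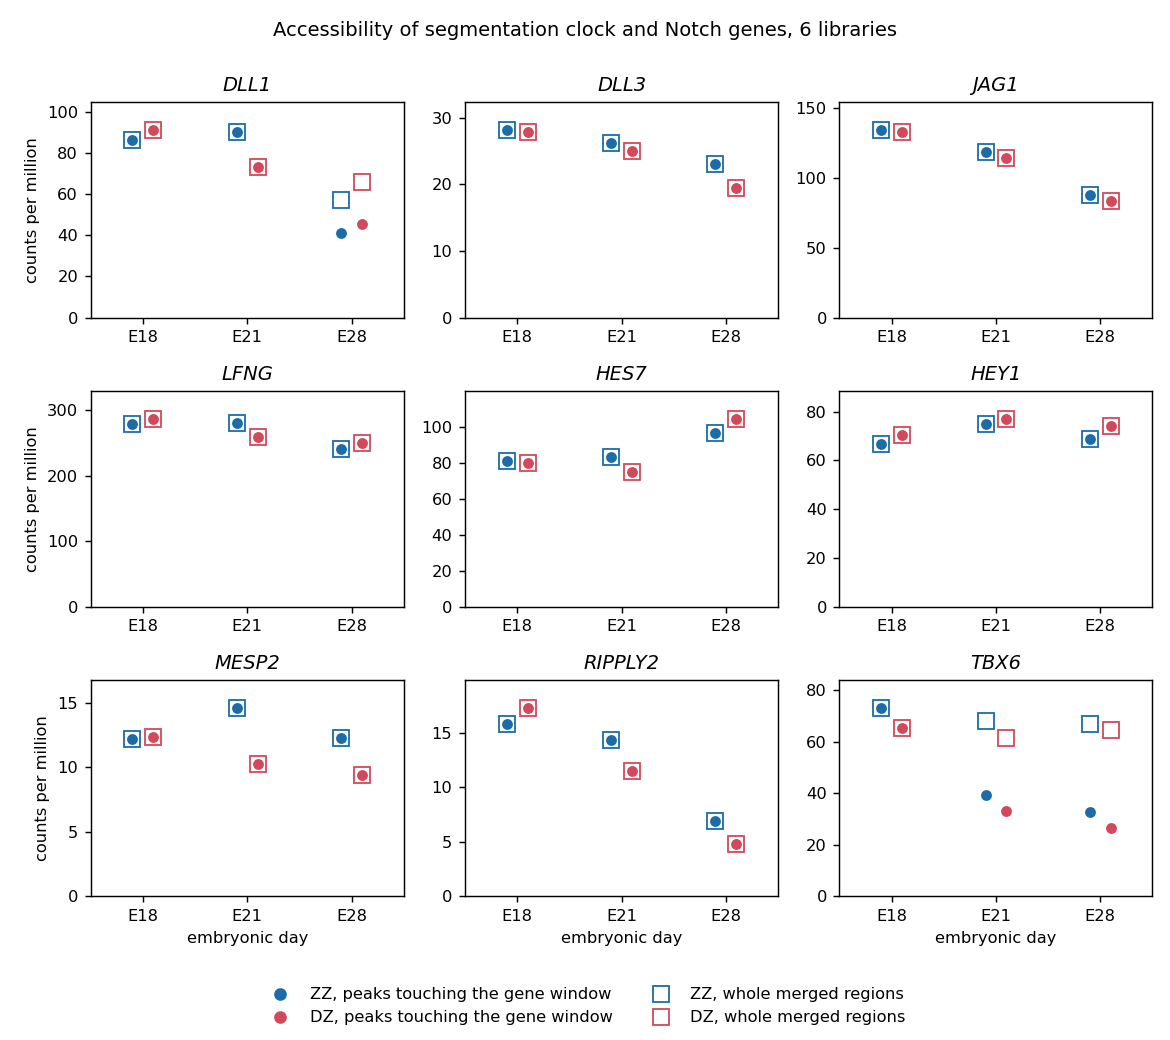
CPM (y axis) of each gene window at E18, E21 and E28 (x axis), 1 point per library, with ZZ in blue and DZ in red, as dots for the peaks that touch the window and open squares for the whole merged regions. RIPPLY2 and JAG1 step down to E28 in both countings, while the TBX6 dots drop from 72.9 and 65.3 at E18 to 39.4 and 33.1 at E21 and the TBX6 squares stay between 61.4 and 72.9.

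DLL1, a transmembrane ligand that drives the clock in the presomitic mesoderm, lies at chr1:198815-211346 (+). Its window held 86.2 CPM in E18 ZZ, 91.2 in E18 DZ, 90.3 in E21 ZZ, 73.0 in E21 DZ, 41.3 in E28 ZZ and 45.3 in E28 DZ. Both E28 libraries lay below the other 4 (log2 fold change against E18 -1.07 ± 0.13 SE, edgeR adjusted p = 0.00684). The promoter region, which runs from -6615 to 5643 bp around the start, was 1 peak or a pair of peaks at E18 and E21 and 3 peaks at E28, of which the most upstream no longer touched the window. The whole region held 84.7 and 88.5 CPM at E18, 87.5 and 70.7 at E21, then 57.0 and 66.1 at E28, and it still fell (-0.54 ± 0.13, adjusted p = 0.0264), though per covered base it was not called (-0.13, adjusted p = 0.333). The call held in 3 of 6 fits with 1 library left out and was lost without E18 ZZ, E18 DZ or E28 ZZ, and the value moved to -0.34 in the fit lacking E28 ZZ and to -0.74 in that lacking E28 DZ. The other DLL1 region, in an intron, had a peak of 1.496 to 2.77 CPM in the 4 E18 and E21 libraries and no called peak at E28.

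**Figure D2:**
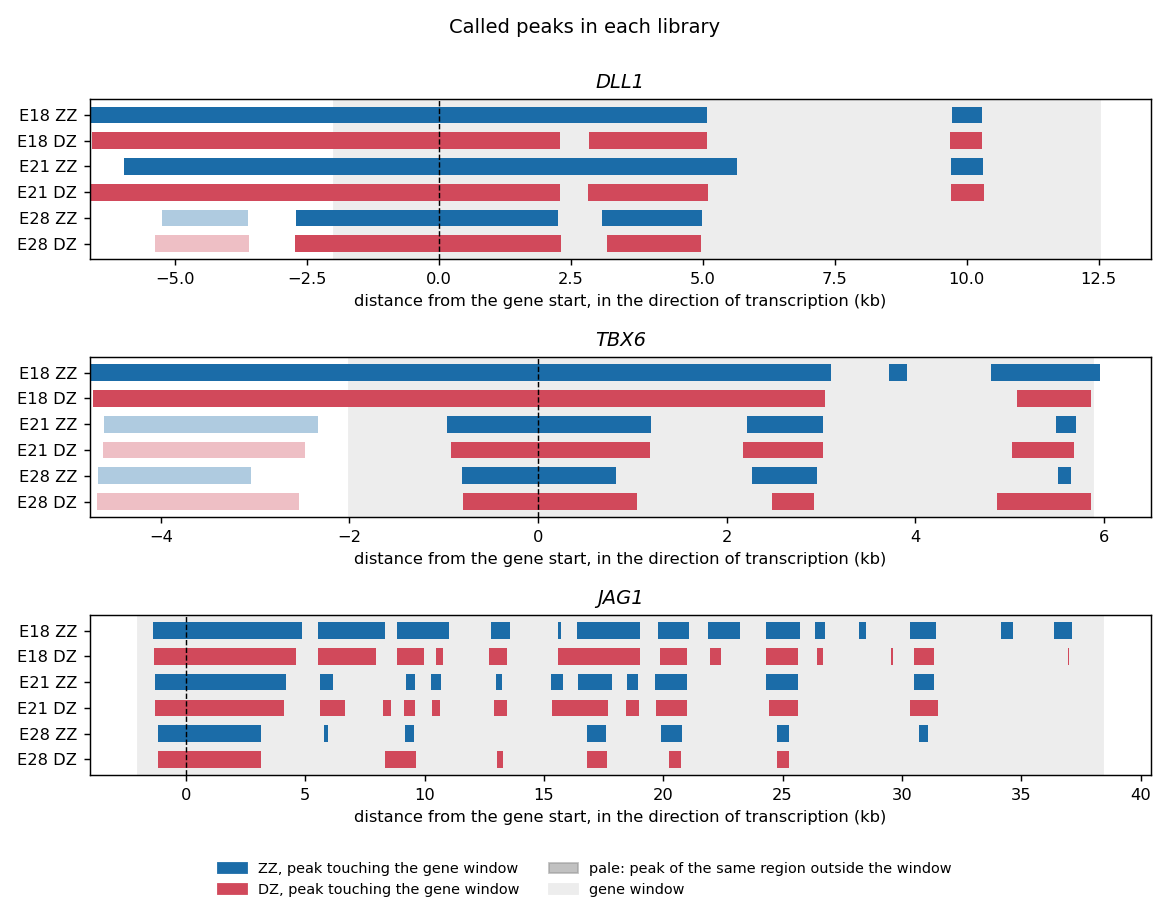
Extent of each called peak in kb from the gene start (x axis) in each library (rows) for DLL1, TBX6 and JAG1, with the gene window shaded, ZZ in blue, DZ in red, and peaks of the same merged region that lie outside the window drawn pale. The single TBX6 promoter peak of the E18 libraries is 3 peaks at E21 and E28, 1 of them outside the window, and JAG1 keeps its promoter peak at E28 while many peaks of the gene body narrow or are not called.

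DLL3, a divergent ligand that acts inside the cell to dampen Notch signalling in the presomitic mesoderm, lies at chr6:48135738-48155373 (+) and had no promoter region, its first peak starting 3268 bp after the start. At E18 the ZZ and DZ libraries held 28.2 and 27.9 CPM, at E21 26.2 and 25.0, and at E28 23.0 and 19.5. The E28 libraries lay below the other 4 (-0.44 ± 0.10, adjusted p = 0.0234). The only DLL3 region called was the first, which held 3.98 and 4.15 CPM at E18, 2.90 and 2.11 at E21, then 1.07 and 1.18 at E28 (-1.89 ± 0.34, adjusted p = 0.0105). The peak there narrowed from 1225 and 1057 bp to 302 and 308 bp, and per covered base the region did not differ detectably (0.00 ± 0.24). The other 3 DLL3 regions, at 4.37 to 13.3 CPM, were not called.

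That first DLL3 region is printed because it was the DLL3 region that fell and because its core, the part covered in all 6 libraries, holds a site of the form bound by RBPJ, the DNA-binding partner of Notch. Sequences are 300 bases read from the RefSeq copy of the Sscrofa11.1 genome in the direction of transcription, and capitals mark the matched letters. The core lies in an intron at chr6:48139818-48140117 (+).
DLL3 region 1: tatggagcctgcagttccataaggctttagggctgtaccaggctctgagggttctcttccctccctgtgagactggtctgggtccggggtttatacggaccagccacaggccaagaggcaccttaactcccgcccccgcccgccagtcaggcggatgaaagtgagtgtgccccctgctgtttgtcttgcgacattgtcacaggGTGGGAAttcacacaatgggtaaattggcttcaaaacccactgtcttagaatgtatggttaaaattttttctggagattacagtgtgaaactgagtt
The motifs searched on both strands were GTGGGAA (RBPJ), AGGTGTGA (T-box factors), CACGTG and also CACGCG and CACGAG (letters bound by HES and HEY repressors and related factors) and CTTTGAT (TCF and LEF factors). GTGGGAA occurred in 7.12% of 76673 such cores genome-wide and in 6.1% of 19559 promoters, so a match by itself is common. Among the member regions it occurred only in the DLL3, JAG1 and LFNG cores printed here, which were chosen partly for it. The cores of the other member regions called lower at E28 did not hold it. A match is a run of letters and no measurement of binding.

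JAG1, the ligand of the other structural class, which is prominent in neural tube, vessels and muscle precursors, lies at chr17:19591248-19629659 (-). Its window held 134.5 and 132.9 CPM at E18, 119 and 114 at E21, then 87.7 and 83.3 at E28. The stages did not overlap, E21 lying between the others (E28 against E18 -0.68 ± 0.07, adjusted p = 0.00562, and E28 against E21 -0.48 ± 0.07, adjusted p = 0.0381). The promoter region, by contrast, held 76.1, 77.5, 79.8, 75.3, 73.8 and 68.1 CPM in library order (ZZ before DZ at each stage) and was not called (-0.16 ± 0.08, adjusted p = 0.141). All 4 gene body regions with a peak in every library fell from E18 to E28, with log2 fold changes between -0.98 and -2.19, which became 0.18, 0.13 and -0.16 per covered base in 3 of them. With 1 library left out at a time, 3 of the 4 kept the call in 6 of 6 fits, while the region at -0.98 (19674 to 21059 bp after the start) kept it in 1, at -1.32 to -0.67.

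The JAG1 region 24295 to 25715 bp after the start held 10.2 and 10.7 CPM at E18, 10.4 in both E21 libraries, then 2.47 and 2.35 at E28. Both E28 libraries lay far below the other 4, which hardly differed (-2.17 ± 0.22, adjusted p = 0.00307, and -2.09 ± 0.22 against E21, adjusted p = 0.0245). Its peak narrowed from 1417 and 1357 bp to 493 and 528 bp, and it was still called lower per covered base (-0.72 ± 0.21, adjusted p = 0.00829, where the median of all regions shifted to +0.43). The JAG1 region 5537 to 11034 bp after the start held 14.1 and 13.6 CPM at E18, 3.40 and 5.10 at E21, then 2.25 and 4.42 at E28. It was already lower at E21 (-1.83 ± 0.33, edgeR adjusted p = 0.0365). With 1 library left out that E21 value ranged from -2.27 to -1.33, and the call did not hold in every fit. The region from 15307 to 19012 bp went from 16.2 and 18.3 CPM through 10.9 and 8.52 to 4.13 and 5.86 (-1.83 ± 0.27 at E28, adjusted p = 0.00596). The region from 19674 to 21059 bp was highest at E21, with 5.13 and 4.44 CPM at E18, 8.96 and 6.63 at E21, then 3.54 and 1.72 at E28 (-1.60 against E21, adjusted p = 0.0385). Whether these time courses differ from each other was not tested.

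The core of the late JAG1 region is printed because the region was lower at E28 with and without the covered length, and it too contains GTGGGAA. It is intronic, at chr17:19604496-19604795 (-).
JAG1 region 7: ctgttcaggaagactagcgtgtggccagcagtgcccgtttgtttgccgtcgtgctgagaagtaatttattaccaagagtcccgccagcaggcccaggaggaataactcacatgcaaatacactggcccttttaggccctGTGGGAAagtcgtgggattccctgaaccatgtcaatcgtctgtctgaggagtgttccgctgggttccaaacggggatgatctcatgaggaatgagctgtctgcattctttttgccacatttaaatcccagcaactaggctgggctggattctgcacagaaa

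LFNG, the fringe glycosyltransferase whose oscillating activity modifies Notch receptors, is annotated at chr3:1721044-1819426 (+). This span begins at the start of CHST12 and contains GRIFIN, and the LFNG coding exons lie near its far end, so the region that counts as its promoter holds the CHST12 start and most of the other regions lie far upstream of the LFNG coding part. The window held 279 and 286 CPM at E18, 280.0 and 259 at E21, then 240.3 and 250.3 at E28. The E28 libraries were the lowest, but the window was not called by edgeR (-0.24 ± 0.08, adjusted p = 0.0646). It was called lower by whole regions (-0.25, edgeR adjusted p = 0.0415) and by DESeq2 (-0.25, adjusted p = 0.00237), which called 32.8% of all windows lower. Per covered base it was called higher (0.50, edgeR adjusted p = 0.00111), but below the median of all windows on that scale (0.54). There 66.3% of all windows were called higher. The region at the annotated start, which is also the CHST12 start, was the only member region called higher, with 39.0 and 37.1 CPM at E18, 50.3 and 53.9 at E21, then 57.0 and 57.7 at E28 (0.54 ± 0.10, adjusted p = 0.0112). A small region farther upstream had a peak of 1.47 and 1.55 CPM at E18, 0.497 in E21 DZ and none in the other libraries.

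Past it, 4 LFNG regions fell by E28. The region 25985 to 27793 bp after the start held 6.53 and 6.41 CPM at E18, 2.86 and 2.45 at E21, then 2.81 and 2.40 at E28. It was lower already at E21 (-1.36 ± 0.27, edgeR adjusted p = 0.0447), and the E21 and E28 libraries overlapped. With 1 library left out the E21 value stayed between -1.4 and -1.31, but the call did not hold in every fit. Its peak narrowed at the same time, from 1775 and 1799 bp at E18 to 546 to 799 bp later, and per covered base it was 0.31 above E18 at E28 (adjusted p = 0.255). The broad region from 67446 to 78278 bp, which contains another annotated LFNG transcript start, went from 50.8 and 56.8 CPM (E18) to 38.4 and 40.8 (E28) (-0.48 ± 0.11, adjusted p = 0.0207), with the opposite sign per covered base (0.68). The region from 55260 to 60108 bp, which overlaps GRIFIN, went from 16.9 and 14.9 to 10.9 and 7.18 CPM (-0.88 ± 0.19, edgeR adjusted p = 0.0168, and 0.33 per covered base). That from 81976 to 83689 bp went from 7.95 and 7.46 to 4.42 and 2.69 CPM (-1.20 ± 0.26, edgeR adjusted p = 0.0173). Its peak narrowed as well, from 1683 and 1670 bp at E18 to 897 and 670 bp at E28. The large region from 85416 to 96529 bp, where the coding exons begin, held 79.1 and 83.1 CPM at E18 and 69.3 and 81.6 at E28 and was not called. Per covered base the region 19436 to 21944 bp after the start, which overlaps CHST12, was called lower (-0.64, edgeR adjusted p = 0.0150).

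The core of the LFNG region that was lower from E21 on is shown because GTGGGAA and a CACGCG on the opposite strand overlap in it. It lies in an intron of the annotated span, at chr3:1748261-1748560 (+). CACGCG was found in 6.44% of all cores.
LFNG region 10: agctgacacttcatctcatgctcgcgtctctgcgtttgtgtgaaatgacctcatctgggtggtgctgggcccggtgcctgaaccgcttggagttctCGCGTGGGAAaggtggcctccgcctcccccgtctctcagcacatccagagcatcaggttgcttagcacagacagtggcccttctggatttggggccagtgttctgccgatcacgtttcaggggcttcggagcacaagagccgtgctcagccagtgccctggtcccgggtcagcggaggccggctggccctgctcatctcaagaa

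HES7, the cyclic repressor at the core of the clock, lies at chr12:53334350-53339336 (-). It had 1 region, from -1862 to 9448 bp around the start, which also covers the start of ALOXE3 and 5 tRNA genes, so its counts cannot be assigned to HES7 alone. The window held 80.8 and 79.7 CPM at E18, 83.5 and 74.9 at E21, then 96.5 and 104 at E28. Both E28 libraries lay above the other 4, a pattern no other member had, but the window missed the edgeR threshold (0.29 ± 0.10, adjusted p = 0.0707). Per covered base it was called higher (0.47, edgeR adjusted p = 0.00172), but below the median of all windows on that scale (0.54). There 66.3% of all windows were called higher. By counts DESeq2 called HES7 higher at E28 against E18 (0.27, adjusted p = 0.0123) and against E21 (0.32, adjusted p = 0.00685). In these comparisons DESeq2 called 28.6 and 15.1% of all windows higher. By edgeR the value was 0.14 without E28 DZ and 0.38 without E28 ZZ, the only 1 of the 6 fits with a library left out that called it. HEY1, a Notch target and repressor of the HES-related family, lies at chr4:56859640-56863807 (+) and held 66.8, 70.3, 75.1, 76.9, 68.8 and 73.9 CPM in library order. The E18 and E28 libraries overlapped, both E21 libraries lay above the other 4, and edgeR called it in no stage comparison (E28 against E18 0.02 ± 0.08, adjusted p = 0.827).

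Of the member promoters reported here (250 bases before and 50 from the start), CACGCG occurred in those of LFNG, RIPPLY2 and TBX6 (11.9% of all promoters), CACGTG in that of TBX6 (7.91%), and none of the 6 motifs in those of DLL1, DLL3, HES7, JAG1 and MESP2.

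MESP2, the basic helix-loop-helix factor of the forming border, lies at chr7:55341941-55345824 (+). Its only region begins 471 bp after the start and covers coding sequence. It held 12.2 and 12.4 CPM at E18, 14.6 and 10.3 at E21, then 12.3 and 9.38 at E28. The stages overlapped and no comparison called it (E28 against E18 -0.23 ± 0.19, edgeR adjusted p = 0.362). That value was -0.45 without E18 ZZ and -0.01 without E18 DZ.

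RIPPLY2, which acts with the Groucho corepressors to end the TBX6 programme, had the most negative log2 fold change of the 9 windows at E28, in either counting. It lies at chr1:82427956-82432844 (-) and has 1 region, from -298 to 1110 bp around the start. The window held 15.8 and 17.3 CPM at E18, 14.4 and 11.5 at E21, then 6.94 and 4.81 at E28, from 474 to 2155 counts per library. Both E28 libraries lay below the other 4 (-1.56 ± 0.21 against E18, adjusted p = 0.00767, and -1.18 ± 0.21 against E21, adjusted p = 0.0462). The peak itself narrowed from 1347 and 1325 bp to 926 and 886 bp, and the density within it still fell (-1.01 ± 0.22 per covered base, adjusted p = 7.36e-05).

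Its promoter is shown because the fall lies in this peak. The sequence spans 250 bases before to 50 bases after the start, at chr1:82432795-82433094 (-), and the CACGCG match begins at +30.
RIPPLY2 promoter: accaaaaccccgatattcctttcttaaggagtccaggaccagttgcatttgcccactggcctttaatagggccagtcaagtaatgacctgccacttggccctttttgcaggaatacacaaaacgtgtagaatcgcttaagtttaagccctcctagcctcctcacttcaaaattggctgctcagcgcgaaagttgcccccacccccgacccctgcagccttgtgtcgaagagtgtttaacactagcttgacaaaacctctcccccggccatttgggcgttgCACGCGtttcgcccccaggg

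TBX6, the T-box factor of presomitic mesoderm, lies at chr3:18271983-18277864 (-). Its window held 72.9 and 65.3 CPM at E18, 39.4 and 33.1 at E21, then 32.6 and 26.6 at E28, and it was the only window called from E18 to E21 (-0.94 ± 0.09, adjusted p = 0.0327) and the lowest adjusted p from E18 to E28 (-1.26 ± 0.09, adjusted p = 0.00341). The peaks of this window were split after E18. At E18 a single peak of 7852 and 7765 bp ran from the start of the neighbouring gene YPEL3 across the TBX6 promoter. At E21 and E28 it was called as 3 peaks. The middle one, over the TBX6 start, held 35.5, 28.9, 29.3 and 22.0 CPM in the E21 and E28 libraries, and the one at the YPEL3 end, with 28.5, 28.3, 34.1 and 37.9 CPM, no longer touched the window. Whole regions held 72.9, 65.3, 67.9, 61.4, 66.7 and 64.5 CPM in library order, the stages overlapped, and the change was -0.12 ± 0.09 (adjusted p = 0.311). The TBX6 promoter region as a whole was likewise not called (-0.12 ± 0.08, adjusted p = 0.314). That sum also holds the YPEL3 start, and the part over the TBX6 start has no count of its own at E18, so whether the TBX6 part alone changed could not be tested.

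The TBX6 promoter is shown as the segment in the middle of that split peak. It lies at chr3:18277815-18278114 (-), with CACGCG in both orientations at -197 and -195, overlapping as a palindrome, and CACGTG at -125.
TBX6 promoter: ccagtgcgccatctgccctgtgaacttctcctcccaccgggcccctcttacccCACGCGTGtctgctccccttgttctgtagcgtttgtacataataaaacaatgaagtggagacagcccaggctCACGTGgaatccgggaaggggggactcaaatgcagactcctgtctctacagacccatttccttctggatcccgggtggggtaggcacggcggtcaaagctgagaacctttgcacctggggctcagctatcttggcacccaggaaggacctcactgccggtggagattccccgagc

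Promoter regions and other regions were set side by side over all members. Of the 31 regions with a peak in every library, 12 were called from E18 to E28, 11 lower and 1 higher, where 37.1% of all 78533 such regions were called, 18.1% lower and 19% higher. Of the 7 promoter regions, 3 were called, DLL1 (-0.54) and RIPPLY2 (-1.57) lower and the region at the annotated LFNG start higher, and the median was -0.12. Of the 24 other regions, 9 were called, all of them lower, the median was -0.64, and all 24 estimates were negative. These 24 regions belong to 5 genes and 14 of them to LFNG, and the 2 classes were not tested against each other. The matching values over all promoter regions and all other regions are not given. The difference between the classes is therefore not read as particular to the members. Summed by window, the order of the classes was reversed at E28 against E18. With promoter peaks alone the member median was -0.765 (4 of 7 windows called, 29.2% of all). With other peaks alone it was -0.108 (1 of 6 called, 25.2% of all). Over all windows these medians were -0.057 and -0.221. Such sums depend on where peaks were split. From E18 to E21, 2 regions were called, both lower (6.59% of all regions called, 1.78% lower), and from E21 to E28, 3 regions were called, all lower (7.13% and 4.61%). Per covered base 9 of the 31 were called from E18 to E28, 6 higher and 3 lower, where 52.2% of all regions were called, 45.8% higher and 6.39% lower. The 12 calls fell to 5 without E18 ZZ and to 4 without E18 DZ, fits in which 16943 and 8740 of the 78533 regions were called (21.6% in the first). All of the 12 folds kept their sign there. Between these fits, without E18 DZ and without E18 ZZ, the JAG1 region from 5537 to 11034 bp went from -2.64 to -1.71, the RIPPLY2 region from -1.34 to -1.78 and the region at the annotated LFNG start from 0.43 to 0.67, while the late JAG1 region was at -2.17 in both. By DESeq2, 14 regions were called, 2 of them higher, where 43.2% of all regions were called, 21% lower and 22.2% higher.

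**Figure D3:**
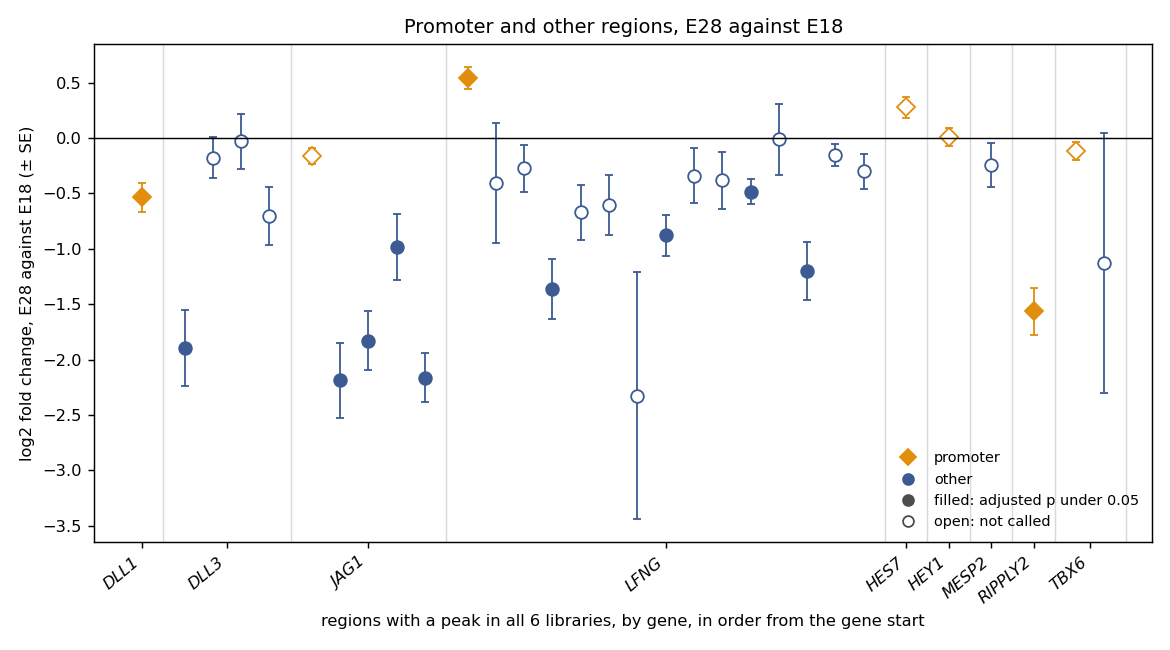
Log2 fold change E28 against E18 with its standard error (y axis) for the 31 member regions with a peak in all 6 libraries, grouped by gene (x axis), with promoter regions as orange diamonds, others as blue circles and called regions filled. The 24 blue estimates lie below 0, down to -2.33, and the promoter estimates lie between -1.57 and 0.54. Per covered base, which is not drawn, some estimates of both kinds change sign.

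The 19 remaining regions lacked a peak in at least 1 library and were not tested with the shared regions. In all, 16 of the 50 member regions, among them 8 of LFNG and 6 of JAG1, had no called peak in either E28 library, 1 had none in either E18 library, and 9 had peaks at E18 alone. The whole libraries had 217138 and 199846 peaks at E18 and 131975 and 137769 at E28. The matching shares over all merged regions are not given, so these counts are not read as particular to the members. Where no peak was called the deposited counts hold nothing, which is no measure of openness.

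No member window was called between DZ and ZZ by edgeR, where 1 of 23286 windows was called (0.00429%). The log2 fold changes of the 9 windows, DZ against ZZ within stages, lay between -0.26 (MESP2, SE 0.16) and 0.10 (HEY1, SE 0.06). By CPM, TBX6, DLL3 and JAG1 were lower and HEY1 was higher in DZ at each of the 3 stages. The TBX6 value of -0.20 ± 0.07 had an unadjusted p of 0.0317 by edgeR and an adjusted p of 0.825. DESeq2, which called 2.32% of all windows in this comparison, called TBX6 (adjusted p = 0.0314). Counted over whole regions the TBX6 value was -0.09 ± 0.07 (adjusted p = 0.821). None of the 31 regions was called, with 0.0% of all regions called, 1 region (LFNG, 63127 to 66602 bp after the start, -0.57 ± 0.21) at an unadjusted p under 0.05 and none called by DESeq2. With 1 library per stage and breed, whether a stage change differs between breeds could not be tested.

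The rest of the Notch pathway did not move in 1 direction. Of 41 further pathway genes, 39 had a window and 19 were called from E18 to E28, 9 higher and 10 lower, near the 20.6% higher and 21.8% lower of all windows, with a median of 0.03 beside -0.04 over all windows. All 4 called nuclear partners of the 7 were higher, among them SNW1 (0.76) and RBPJ (0.59), the DNA-binding factor of the pathway. PSENEN (0.70), a subunit of the protease that releases the Notch intracellular domain, and MIB1 (0.60), the ubiquitin ligase that activates ligands, rose as well. All 3 called targets of the 6 measured were lower, with HES5 falling furthest, from 77.5 CPM in both E18 libraries and 82.4 and 79.2 at E21 to 7.30 and 6.46 at E28 (-3.53). HES5 is a neural Notch target, and HEYL (-1.17), DTX1 (-1.30) and the vascular ligand DLL4 (-0.88) also fell. Per covered base HES5 was still lower (-1.16), HEYL (-0.19, edgeR adjusted p = 0.287) and DTX1 (-0.01, adjusted p = 0.95) were not called, and DLL4 had the opposite sign (0.35). On that scale 30 of the 39 were called, 29 of them higher, where 66.3% of all windows were higher. No gene of this list was called from E18 to E21 by edgeR (15 at an unadjusted p under 0.05) and 4 were lower from E21 to E28 (4.77% of all windows). No gene of the list was called between breeds by edgeR (2 at an unadjusted p under 0.05).

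Genes of segmentation outside the Notch pathway were mostly lower where called. Of 31 listed, 30 were tested and 18 called from E18 to E28, 4 higher and 14 lower, against 20.6 and 21.8% of all windows, with a median of -0.41 beside -0.04 over all windows. The presomitic and determination front genes gave 7 lower of 11 tested and none higher, and the border and polarity genes 4 lower of 7. CDX1, a posterior patterning factor, held 33.4 and 31.1 CPM at E18, 14.4 and 15.5 at E21, then 6.25 and 4.82 at E28 (-2.59). WNT3A, which maintains the posterior growth zone, went from 40.3 and 48.8 to 14.9 and 7.27 CPM (-2.12), and RIPPLY1, the close relative of RIPPLY2, from 12.7 and 12.4 to 4.18 and 3.05 (-1.85). CER1, a secreted antagonist, had a called peak of 3.87 and 3.50 CPM at E18 and none at E21 or E28. It is 1 of the 4 border and polarity genes and of the 14 genes called lower. Its call sets counts against stretches without a called peak, which are no measure of openness. Per covered base CDX1 (-0.26, edgeR adjusted p = 0.249) and RIPPLY1 (-0.41, adjusted p = 0.108) were no longer called, WNT3A was (-0.58, adjusted p = 0.00409), and of the 29 genes with a value 15 were called higher and WNT3A alone lower, where 66.3% of all windows were higher and 2.17% lower. The 4 genes higher by counts were MEOX1 (0.68), a somite homeobox gene, and the feedback inhibitors SPRY2 (0.44), SPRY4 (0.35) and NKD1 (0.31). From E18 to E21, 1 gene of the list was called and from E21 to E28, 3, all lower, beside 1.13 and 4.77% of all windows.

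Cell type markers moved with these results, and their calls are read against the 21.8% lower and 20.6% higher of all windows. The summed windows of 9 neural progenitor markers, 6 of them called lower, went from 370.1 and 401 CPM (E18) to 181 and 259 (E28). Those of 9 neuron markers, 5 called lower, went from 347.7 and 338.3 to 199 and 200 CPM. Those of 8 epithelial markers, 7 called lower, went from 355 and 343 to 177 and 175, and those of 7 presomitic mesoderm markers, 4 of the 6 tested called lower, from 254.5 and 201 to 108 and 129.6. These presomitic markers also stand in the segmentation list, so their fall partly restates that result. The 10 fibroblast and mesenchyme markers, 6 called higher, went from 739 and 689 to 975 and 885. The 5 cardiac markers, 4 called lower, went from 362 and 268 to 110 and 175, and the 4 kidney and intermediate mesoderm markers, 2 called lower, from 629.6 and 580.4 to 484.5 and 467. The other sets moved less, among them the 12 myogenic (461 and 447 to 410 and 549, 2 called higher and 1 lower), 8 sclerotome and cartilage (469 and 458 to 414 and 428, 1 lower) and 8 endothelial markers (369 and 390 to 371 and 357, 2 higher and 4 lower). None of the markers in the sets given here lacked a peak in every library. Their part in the results above was not tested. In summed libraries a loss of cells of a type and a loss of openness per cell cannot be told apart. Levels within cell clusters are described next, without a test. A cluster can itself mix cell states whose shares change with stage, so they cannot be told apart there either. The myogenic-like cluster, for example, raised all 12 measured myogenic markers, from PAX7 and MYF5 to MYOG and CHRNA1.

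The 58809 kept barcodes, called cells here with the reservation that no doublet caller was run, fell into 13 clusters, made from regions of odd-numbered autosomes away from every member, listed gene and marker, and 9 could be named from marker genes. No cluster took the name of presomitic mesoderm or of somite and dermomyotome, although somites were the labelled tissue at E18 and E21, and the 8 somite and dermomyotome markers summed to 536 to 627 CPM there. The sclerotome and cartilage-like cluster raised 3 of the 8 somite and dermomyotome markers (MEOX2, UNCX and FOXC1) beside 3 of 8 of its own, and took its name from the larger mean log2 fold of the latter (0.468 against 0.185). Each name is written with -like. The epithelial-like cells went from 39.9 and 30.1% of the E18 libraries to 1.52 and 1.33% at E28, the neural progenitor-like from 18.1 and 29.6% to 0.616 and 0.413%, and the myogenic-like from 7.04 and 7.06% to 14.6 and 22.3%. The blood and immune-like cluster of 384 cells was led by globin genes and is left out of the order given below, which holds clusters with at least 5 libraries of 50 cells.

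The neural progenitor-like cluster raised 7 of 9 neural progenitor markers and also 6 of 9 neuron markers, and took its name from the larger mean log2 fold of the former (0.894 against 0.506). DLL1 was most open in the neural progenitor-like cells, at 160 ± 48 CPM (SD over 5 libraries), then in neuron-like cells at 129 ± 39, and these neighbours did not separate, since the first exceeded the second in 2 of 4 libraries. In every other named cluster it lay at or below 89.98. JAG1 had its highest level in the same neural progenitor-like cells, 166 ± 35, above the next cluster in 5 of 5 libraries, and 103 to 118 in the other named clusters of the order, whose neighbours mostly overlapped. DLL3 peaked in neuron-like cells at 40.9 ± 5.6, above the next named cluster in 5 of 5 libraries (epithelial-like, 29.9 ± 2.0). RIPPLY2 was also highest in neuron-like cells, at 31.4 ± 4.0, against 15.6 ± 3.3 of neural progenitor-like cells and above them in 4 of 4 libraries. At the coarser resolution of 0.3, neuron-like is a broader cluster. It raised 6 of 9 neuron and 7 of 9 neural progenitor markers, and took its name from the larger mean log2 fold (0.745 against 0.602). There the top levels were 29.7 for DLL3, above epithelial-like cells (29.0) in 4 of 6 libraries, and 18.4 for RIPPLY2, above them (13.3) in 5 of 6. The DLL3 separation was thus lost.

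LFNG was highest in neural progenitor-like (392 ± 62), endothelial-like (383 ± 49) and myogenic-like cells (331 ± 83), which overlapped, and lowest in fibroblast and mesenchyme-like cells (198 ± 15). HEY1 followed a similar order at the top, with 93.7 ± 19.5, 88.6 ± 22.3 and 87.8 ± 17.6 in neural progenitor-like, myogenic-like and endothelial-like cells. HES7 also had endothelial-like cells at the top (119 ± 23), with epithelial-like cells (112 ± 32). Its lowest means were those of neural crest and glia-like (68.85 ± 12.24) and neural progenitor-like cells (67.7 ± 5.4). These did not separate, the former being higher in 1 of 5 libraries. By window peaks TBX6 was highest in endothelial-like cells (67.3 ± 11.9), above the next cluster in 5 of 5 libraries. Its E18 values hold the YPEL3 end and those of E21 and E28 do not, so its mean and SD mix different stretches. The HES7 and LFNG levels also hold the neighbouring genes named above. The orders of HES7, LFNG and TBX6 thus cannot be assigned to those genes alone. MESP2 varied little, from 10.8 to 13.5 CPM over the named clusters, within the spread of the libraries.

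**Figure D4:**
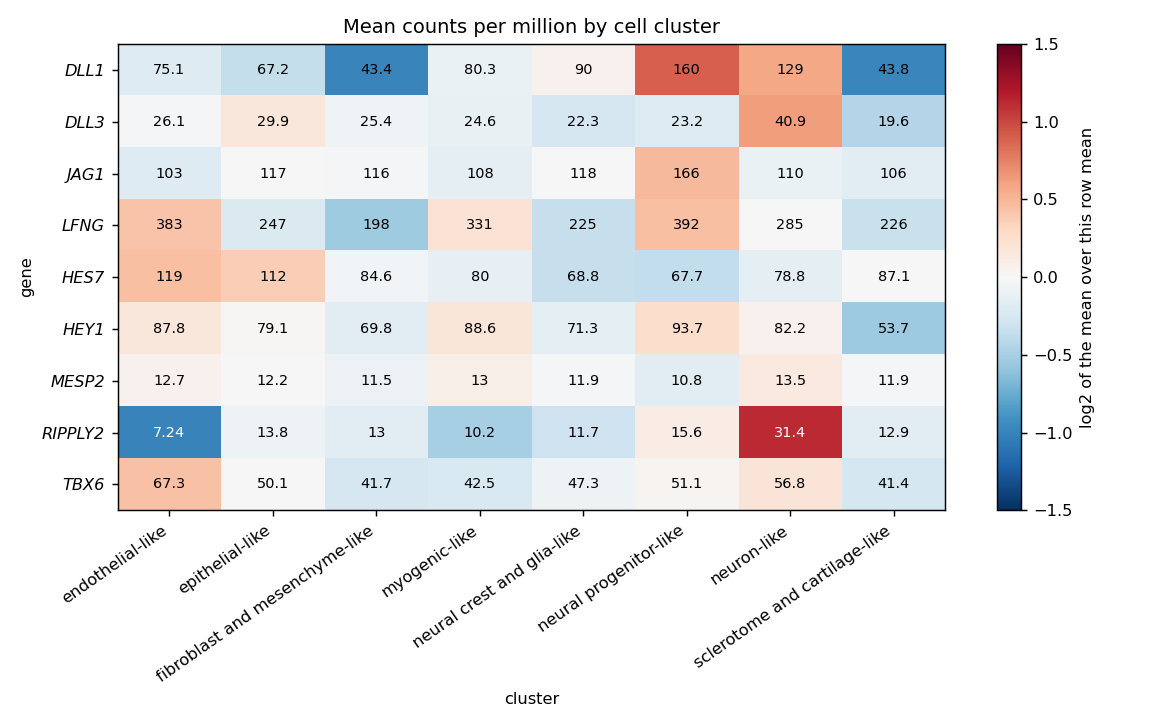
Mean CPM over libraries (numbers in the cells, peaks that touch the window) of each gene (rows) in each named cluster of at least 5 libraries (columns), coloured by the log2 ratio to the mean of its row. RIPPLY2 in neuron-like cells (31.4) and DLL1 in neural progenitor-like cells (160) stand highest against their rows, and the MESP2 row is nearly flat.

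Some single regions differed more between clusters than their windows did. The JAG1 region from 24295 to 25715 bp held 21.2 and 21.4 CPM at E18 and 30.7 and 44.6 at E21 in neural progenitor-like cells, and 12.9 to 16.3 in the neuron-like cells of those libraries, but 3.58 to 5.92 in the fibroblast and mesenchyme-like cells. The JAG1 region from 30333 to 31514 bp was open in fibroblast and mesenchyme-like cells, at 23.8 to 35.04 CPM in the E18 and E21 libraries, where neural progenitor-like cells held 0.667 to 1.55. In E28 ZZ it was 4.56, and E28 DZ had no called peak there. The region from 5451 to 6000 bp of the annotated LFNG span overlaps CHST12 and lies far upstream of the LFNG coding part. It was open in endothelial-like cells, at 19.96 to 46.4 CPM in the E18 and E21 libraries against at most 0.784 in any other named cluster. It had no called peak at E28. The LFNG region from 79027 to 79954 bp gave 8.53 to 26.3 CPM in endothelial-like cells of the 6 libraries and at most 7.35 in any other named cluster.

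Within clusters, the E28 libraries were set against the E18 libraries using whole merged regions, for the 9 clusters with at least 50 cells in all 4 libraries, 3 of which have no name. RIPPLY2 was lower in both E28 libraries than in both E18 libraries in 8 of 9, and in the epithelial-like cells the stages overlapped. Between 24.0 and 33.6% of all windows were lower in that sense in a given cluster. In myogenic-like cells RIPPLY2 held 16.6 and 15.5 CPM at E18, 10.3 and 10.2 at E21, then 4.63 and 4.17 at E28. The neuron-like cells were not among the 9, and there RIPPLY2 held 25.9 and 32.1 CPM at E18, 34.9 and 28.9 at E21 and 35.1 in E28 DZ, where the E28 value was not lower. JAG1 was lower in 6 of 9 clusters and overlapped in 3, among them the myogenic-like cells.

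In the myogenic-like cells the members did not move one way, and for DLL1 and TBX6 the direction depended on which peaks were counted. By whole regions 5 of the 9 genes were higher in both E28 libraries than in both E18 libraries and 2 were lower (DLL3 and RIPPLY2), near the 45.2% higher and 32.8% lower of all windows, where the median log2 ratio was 0.11. By the peaks that touch the window 3 were higher (LFNG, HEY1 and HES7) and 3 lower (DLL3, RIPPLY2 and TBX6), where 43.5 and 33.8% of all windows were. By whole regions DLL1 held 75.0 and 69.9 CPM at E18, 97.6 and 79.7 at E21, then 111 and 137 at E28 in these cells. By window peaks, which leave out the most upstream DLL1 peak of the E28 libraries, it held 72.6 and 87.0 at E28 and the stages overlapped. LFNG went from 259 and 239 through 311 and 327 to 394 and 458, and HEY1 from 65.0 and 63.3 through 82.5 and 98.8 to 103 and 119.5 CPM. The LFNG and HEY1 values hardly differed between the countings. TBX6 went from 68.0 and 58.4 up to 84.6 and 100.0 by whole regions, which hold the YPEL3 end, but down to 29.9 and 33.6 by window peaks. The LFNG region from 67446 to 78278 bp held 50.7 and 44.1 CPM at E18, 82.7 and 88.6 at E21, then 108 and 124 at E28 in these cells. LFNG was also higher at E28 in the epithelial-like cells and in no other cluster compared, in either counting. DLL1 was higher there by whole regions (log2 ratio 0.33) and lower by window peaks (-0.18), and by window peaks it was higher at E28 in none of the 9 clusters.

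In the cluster named fibroblast and mesenchyme-like most members lay lower at E28. There 6 of the 9 genes were lower in both E28 libraries, where 31.4% of all windows were, and HES7 alone was higher, where 33.5% were. By window peaks 7 were lower, TBX6 being added, where 32.5% of all windows were. DLL1 held 54.9 and 52.3 CPM at E18 and 41.6 and 29.9 at E28 by whole regions, and JAG1 held 157 and 155 at E18, 123 and 115 at E21, then 83.9 and 64.3 at E28. The cluster held 2.64 and 1.88% of the E18 libraries, 22.5% of E28 ZZ and 4.07% of E28 DZ. An unnamed cluster went from 1.69 and 1.94% at E18 to 24.1 and 52% at E28, and at the coarser resolution of 0.3 the fibroblast and mesenchyme-like name covered 79.1 and 71.1% of the E28 libraries, so at E28 this cluster is a differing part of that broader class. The E18 libraries had 297 and 189 cells in it, and peaks were called on whole libraries, not on clusters. The lower levels were not particular to this cluster. By whole regions the unnamed cluster above had 8 members lower and 0 higher, where 33.6 and 25.0% of all windows were. Another unnamed cluster had 6 lower and 1 higher (29.1 and 37.6% of all windows). The last unnamed cluster compared had 4 lower and 2 higher (26.5 and 38.4%).

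**Figure D5:**
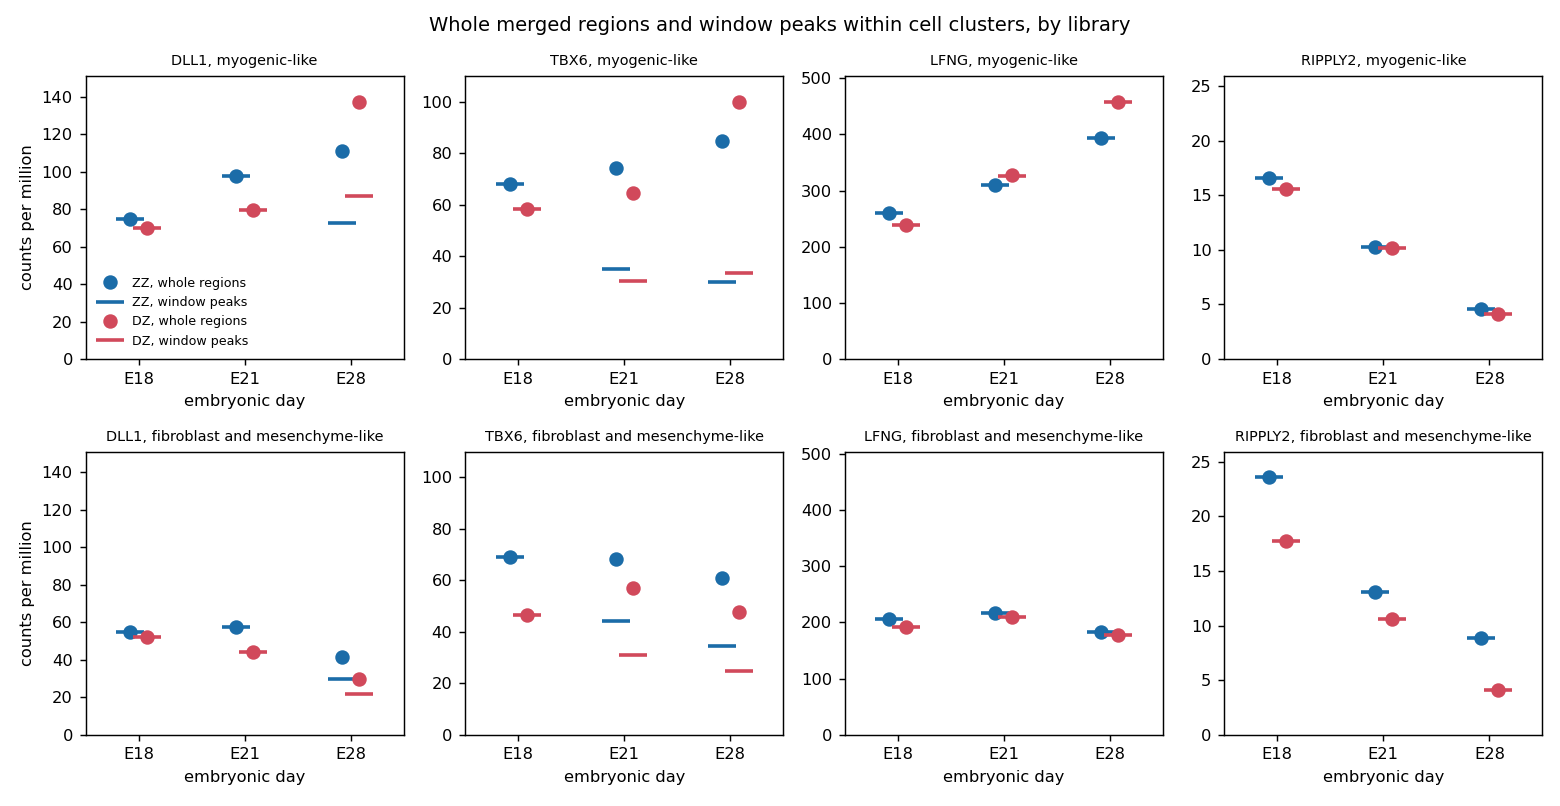
CPM (y axis) of DLL1, TBX6, LFNG and RIPPLY2 by stage (x axis) in myogenic-like cells (top) and fibroblast and mesenchyme-like cells (bottom), 1 point per library for whole merged regions and 1 dash for window peaks, ZZ in blue and DZ in red. In myogenic-like cells the DLL1 points reach 111 and 137 at E28 but its dashes 72.6 and 87.0, the TBX6 points and dashes part in opposite directions, LFNG goes from 259 and 239 to 394 and 458 in both countings, and RIPPLY2 goes down in both cell types.

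Across the 71 sums of cluster and library with at least 50 cells, DLL1 and JAG1 followed each other most closely of all member pairs (Pearson r = 0.795), then DLL1 and LFNG (0.645). HES7 correlated negatively with JAG1 (-0.33) and RIPPLY2 (-0.319). Among windows over 100 kb away, the most alike were AGAP1 (0.896) and SOX21 (0.867), a neural factor, for DLL1, SOX21 again (0.834) for JAG1, CNTFR (0.865) for RIPPLY2, MYO1G (0.88) for TBX6, SWI5 (0.775) for HES7, CHST15 (0.77) for LFNG, MGAT3 (0.711) for DLL3, ZC3H12C (0.68) for HEY1 and ABCC8 (0.653) for MESP2. The sums share libraries, peak lists and depth, so these values describe a likeness of pattern and no more.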

How the data were processed

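Single-cell ATAC-seq libraries of pig somites and myotome were made on the 10x platform, and the authors processed them with Cell Ranger ATAC against Sscrofa11.1. The deposited values are counts of transposase cuts per peak and barcode, with peaks called separately in each library. The submitters' processing notes also name Seurat 3.1.1 and Signac 0.2.2. Each library has its own peak list, so a stretch that was not called holds no count there.

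Of 64439 deposited barcodes, 58809 with 2000 to 30000 counts were kept. No doublet caller was run. Peaks overlapping by at least 1 bp were merged over the 6 libraries, and counts were summed per gene window (gene body plus 2 kb upstream, RefSeq annotation of Sscrofa11.1) and per merged region. Windows and the 78533 regions with a peak in every library were fitted with the edgeR 4.0.16 quasi-likelihood test (R 4.3.3) with TMM normalization, the edgeR filter on low counts and additive terms for stage and breed, which leaves 2 residual degrees of freedom among 6 libraries. P-values were adjusted by Benjamini and Hochberg over all windows or all regions, with a threshold of 0.05. The SE of an edgeR log2 fold change is its absolute value divided by the square root of the quasi-likelihood F statistic. The fit was first tested on simulated data. Alternatives were DESeq2 1.42.0, no TMM, no filter, barcodes with 4000 to 60000 counts, binary counts, the covered length as an offset, no other term, each library left out, promoter or other peaks alone, other sets of regions, and whole merged regions per window, the last added after seeing the data.

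Cells were clustered on 39106 shared regions of odd-numbered autosomes more than 100 kb from any member, listed or marker gene (Python 3.11.15, scikit-learn 1.9.0, leidenalg 0.10.2, resolution 1.0, neighbours balanced over libraries). A cluster was named from at least 3 raised markers. Cluster sums of at least 50 cells were described without a test. Likeness is Pearson's r of log2(CPM + 1) over these sums.

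The members and the gene lists were chosen with earlier results of these data known. All 10 members are named, with every region that was called and every promoter region. From each pathway list, the 4 called genes of largest change in each direction are named. Sequences were read from the RefSeq Sscrofa11.1 genome. The core of a region is the part covered in all 6 libraries, cut to 300 bases around its middle. One promoter sequence is not reported here.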

Additional observations from a re-analysis of the deposited data

Results flagged for a closer look

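A few members moved one way in one cell cluster and the other way in another, with both E28 libraries above both E18 libraries in the first and below them in the second. The values are log2 ratios of the E28 mean to the E18 mean of whole merged regions, and the difference between clusters was not tested. Values by the peaks that touch the window are given beside them. DLL1 gave 0.78 in myogenic-like cells and -0.58 in fibroblast and mesenchyme-like cells, but 0.14 with overlapping stages and -1.06 by window peaks. HEY1 gave 0.79 in myogenic-like cells and -0.38 in fibroblast and mesenchyme-like cells. LFNG gave 0.77 in myogenic-like cells and -0.42 in sclerotome and cartilage-like cells. TBX6 gave 0.55 in myogenic-like cells and -0.26 in sclerotome and cartilage-like cells, but -0.99 and -1.22 by window peaks, so its opposite signs hold for whole regions alone. The HEY1 and LFNG values were the same by window peaks. By whole regions 45.2% of all windows were higher in both E28 libraries in myogenic-like cells. In fibroblast and mesenchyme-like cells 31.4% were lower, and in sclerotome and cartilage-like cells 27.4%. The share of all windows with opposite orders in a pair of clusters is not given, so these cases are not read as particular to the members. The median over all windows was 0.11 in myogenic-like, 0.01 in fibroblast and mesenchyme-like and 0.07 in sclerotome and cartilage-like cells. The latter clusters held 189 to 297 cells in each E18 library against 711 and 792 myogenic-like cells.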

How the results depend on the processing

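No paired analysis was possible because the labels carry no replicate numbers, and stage already stands in the fit as the block for breed. Each stage and breed had 1 library. The share of all windows or regions called in the same fit stands in brackets. Of the member windows called, E28 against E18 gave 1 with other peaks alone (25.2%), E21 against E18 gave 2 by DESeq2 (34.1%) and 0 with promoter peaks alone (0.0%), other peaks alone (0.339%) or whole merged regions (7.07%), E28 against E21 gave 6 by DESeq2 (34.5%) and 0 with promoter (2.43%) or other peaks alone (0.0%), and DZ against ZZ gave 1 by DESeq2 (2.32%). Of the member regions, E28 against E18 gave 7 over all merged regions (14.9%) and 5 where the covered length varied by at most 1.5 times (32.2%), E21 against E18 gave 4 by DESeq2 (18.1%), 1 without the other term (7.37%) and 0 over all merged regions (0.0%) or within 1.5 times (1.2%), and E28 against E21 gave 5 by DESeq2 (19.7%), 11 with the covered length as offset (32.4%) and 0 over all merged regions (0.0%). A count of 0 where no feature was called says nothing about the members. Leaving out 1 library gave 1 to 6, 0 to 1, 0 to 3 and 0 windows and 4 to 13, 0 to 4, 0 to 5 and 0 regions in the order E28 against E18, E21 against E18, E28 against E21 and DZ against ZZ, where a stage left with 1 library is assumed to vary like the others. With the covered length as offset, where the median of all windows at E28 against E18 was 0.54 and that of all regions 0.43, these log2 fold changes were positive: windows at E28 against E18 of DLL3 0.10, LFNG 0.50, MESP2 0.21, TBX6 0.36 and JAG1 0.70, TBX6 at E21 against E18 0.42, JAG1 at E28 against E21 0.39, and regions of JAG1 0.34 (promoter), 0.18 and 0.13, LFNG 0.31, 0.33 and 0.68 and TBX6 0.79. With promoter peaks alone LFNG was 0.39, HES7 -0.76 and HEY1 -0.08. With other peaks alone DLL1 was 1.86 against E18 and 1.55 against E21, and TBX6 1.19 at E28 and 1.18 at E21. These sums depend on where a peak was split. In E28 DZ the HES7 peak was split, and its part from 1561 to 8291 bp (79.63 CPM) did not touch the promoter. In E28 ZZ the DLL1 piece from 3092 to 4985 bp (16.65 CPM) counted as other. In E18 ZZ, though not in E18 DZ, that stretch was joined to the promoter peak. The TBX6 piece from 2211 to 3015 bp of E21 ZZ lay within the promoter peak at E18. The part of splitting in these values was not tested. The HEY1 region changed sign without TMM (-0.07), with binary counts (-0.02) and within 1.5 times (-0.24), the TBX6 promoter region with binary counts (0.07), and leaving out 1 library put the HEY1 window at -0.05 to 0.05 and its region at -0.05 to 0.07. At a cluster resolution of 0.3, the highest DLL3 and RIPPLY2 levels were 29.7 and 18.4 CPM. Of the other fold changes and levels, 238 kept direction and call, 33 lost the call and 9 gained it under an alternative setting, and with 1 library left out 135 kept it, 63 lost it and 2 gained it.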
